A study of Mus musculus with 2 samples.

Results

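The tripartite motif (TRIM) genes were taken as the genes with a symbol of Trim followed by a digit and at least 1 annotated protein-coding transcript. The rule found 68 members among 21901 protein-coding genes and 55536 named genes in all. Pseudogenes such as Trim30e-ps1 stayed out, and so did TRIM genes under other symbols. The RNA was ribosomal RNA-depleted total RNA from nuclei of macrophages grown from C57BL/6J mouse bone marrow. The fraction is called nucleoplasmic in one label and nuclear in another. All cells had been pre-treated with Lipid A at 100 ng/ml for 12 hours, washed and rested for 12 hours, and stimulated again at that dose for 20 minutes. The single group held 2 libraries, replicate 1 made from 1 µg of RNA and replicate 2 from 500 ng, with no untreated library, so no response to Lipid A was measured. The labels number them as biological replicates with separate biosample entries under 1 donor label, and sex and age were not collected. Whether they came from separate animals is not stated in the labels, so their spread may be partly technical. Pairs of values below stand in the order replicate 1, replicate 2.

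TRIM proteins share an N-terminal RING finger, B-box and coiled coil, and most act as ubiquitin ligases. The C-terminal domain differs between subfamilies and binds the target, as in the SPRY domain of many antiviral members. In macrophages several members tune Toll-like receptor and RNA-sensor signalling, and many are induced by interferon.

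Depth was 21954179 and 17739520 expected counts in replicates 1 and 2, so that a count of 0 allows up to 0.137 and 0.169 CPM, the count scaled to library depth (3 counts, counting error only). Of 8 macrophage markers, all reached 1 TPM (a transcript level scaled to length and library total), from 47.7 TPM for Spi1 to 1411 TPM for Lyz2, and their summed level was 2452 and 2851 TPM. Lyz2 and Csf1r were among those higher in the second library, while 5 of the 8 were lower there. Of 32 markers of neutrophils, dendritic, lymphoid, stromal, erythroid or mast cells, Mmp8 alone did, at 1.26 TPM. Elane, Ly6g, Cd3e, Klf1 and Mcpt4 were at 0 in both libraries.

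TRIM genes spanned the whole range from 0 to the upper levels of the transcriptome. Mean TPM was 1 or more for 39 of 68 members (57.4%), against 45.8% of protein-coding genes, and 10 or more for 20 members (29.4%), against 21.1%. The median of the 39 members was 11.1 TPM, and that of the protein-coding genes at this level was 8.92 TPM. Of all counts, members took 0.358% (95% Wilson interval 0.356 to 0.361) in the first library and 0.379% (0.376 to 0.382) in the second. Both intervals cover counting error only and leave out the spread between cultures. The 5 highest members held 49.6% of the members' TPM in replicate 1 and 55.4% in replicate 2. In bulk RNA a low level cannot be told apart from expression in few cells.

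**Figure D1:**
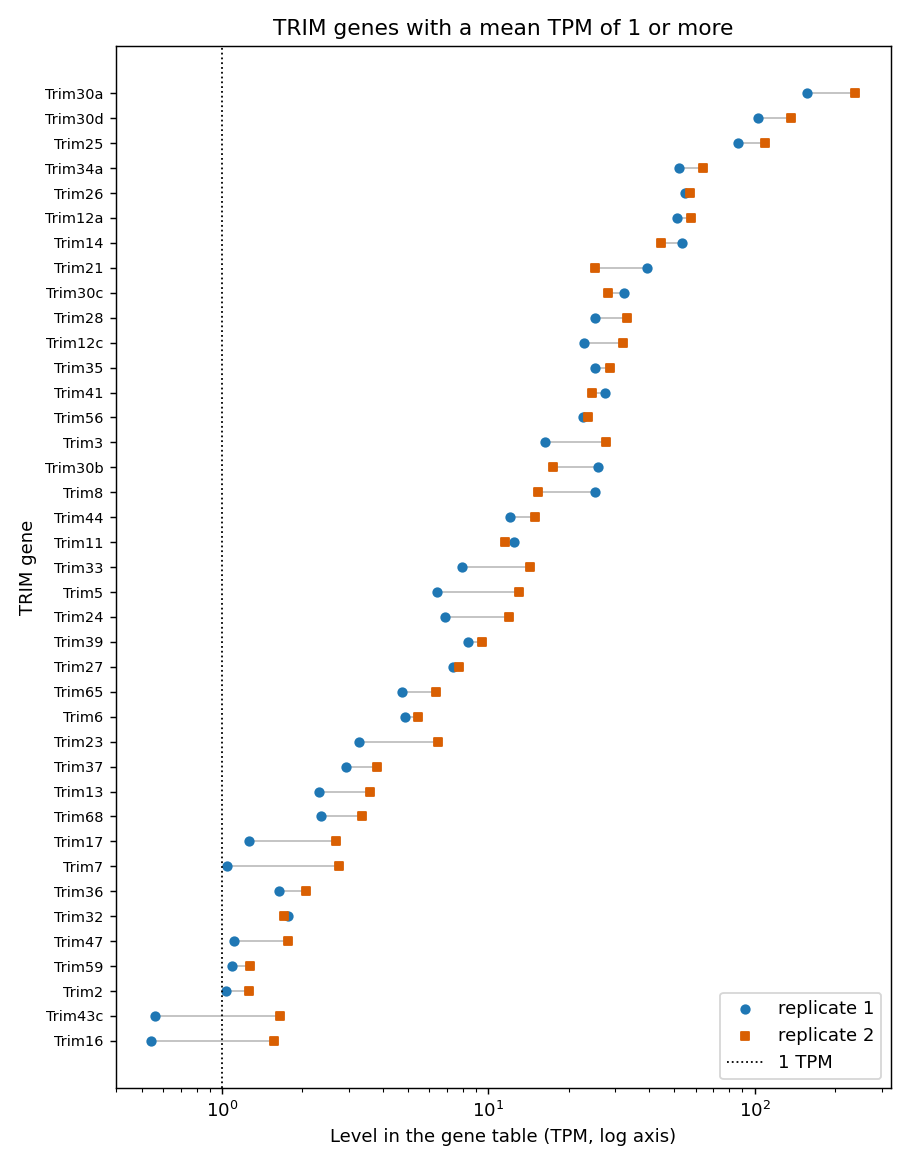
TPM of the 39 TRIM genes with a mean of 1 TPM or more, on a log axis. Each row is a gene, circles are replicate 1, squares are replicate 2 and the dotted line marks 1 TPM. Trim30a leads with 157 and 239 TPM, and Trim43c and Trim16 cross 1 TPM between the libraries.

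Trim30a, Trim30d and Trim25, all on the interferon-linked list, stood highest. That list was chosen with earlier results of these data known and holds all 10 genes of the Trim30 cluster described below. Other listed genes were lower, such as Trim5 with 9.74 TPM on average, below the unlisted Trim28 with 29.2 TPM. Trim30a, whose protein dampens Toll-like receptor signalling by acting on TAB2 and TAB3 (ENSMUSG00000030921.17, mm10 chromosome 7, 104409025 to 104465193, minus strand), had 157 and 239 TPM. It ranked 132 by mean TPM among the protein-coding genes. Its neighbour Trim30d (104470014 to 104507849) had 103 and 137 TPM. Trim25, which encodes the ligase that promotes signalling by the RNA sensor RIG-I (chromosome 11, 88999376 to 89020293), had 87.0 and 110 TPM on 13687 and 12051 counts. In both libraries Trim30a stood above Trim30d and Trim30d above Trim25, although the ranges of Trim30d and Trim25 overlapped. Trim30d ranked 276 and Trim25 ranked 360.

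A second tier lay near 50 TPM. Trim34a had 52.0 and 64.2 TPM (58.1 ± 8.60, SD, n = 2) and Trim26 had 54.8 and 57.3 TPM (56.0 ± 1.79). Trim12a had 51.0 and 57.6 TPM (54.3 ± 4.64) and Trim14 had 53.4 and 44.7 TPM (49.0 ± 6.13). The order of these 4 was within the spread of the libraries. Trim14 encodes a RING-less adaptor of the mitochondrial antiviral protein MAVS, and Trim26 (chromosome 17, 36837134 to 36859398) lies in the major histocompatibility complex region. Trim21, the cytosolic antibody receptor, had 39.4 and 25.1 TPM, the second library being the lower. Trim56, another antiviral member, had 22.8 and 23.7 TPM, nearly level. Of the 16 genes of the interferon-linked list 14 reached 1 TPM, with a list median of 31.3 TPM. The exceptions were Trim34b with 0.525 TPM and Trim38, whose product also acts on the TAB proteins, with 3 and 0 counts.

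Nuclear regulators of the PHD-bromodomain class spanned a wide range of levels. Trim28, the corepressor recruited by KRAB zinc finger proteins, had 25.2 and 33.3 TPM. Trim33, a regulator of SMAD4, had 7.93 and 14.3 TPM, and Trim24, a nuclear receptor cofactor, had 6.85 and 12.0 TPM. Trim66, the remaining member of the class, had 5 counts in replicate 1 and 1 in replicate 2.

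Among the NHL-repeat genes, Trim3 had 16.4 and 27.7 TPM, while Trim32 and Trim2 had 1.74 and 1.15 TPM on average. Trim71, a gene of early development, had 1 count in replicate 1 and 0 in replicate 2. Trim8, whose product promotes TAK1 activation, had 25.1 and 15.3 TPM, and Trim44 had 13.5 ± 2.00 TPM. Trim35 had 26.9 ± 2.53 TPM, Trim41 had 27.4 and 24.5 TPM and Trim11 had 12.0 ± 0.672 TPM. Trim23, which ends in an ARF GTPase domain, had 3.26 and 6.44 TPM.

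The other members at 1 TPM or more were lower. Trim27 had 7.33 and 7.75 TPM, and Trim65, whose product acts on the RNA sensor MDA5, had 4.74 and 6.33 TPM. Trim37, whose protein carries a MATH domain, had 2.91 and 3.80 TPM. Trim13 and Trim59, both membrane-anchored ligases, had 2.30 and 3.59 TPM and 1.09 and 1.27 TPM. Trim68 had 2.35 and 3.35 TPM, Trim47 had 1.11 and 1.76 TPM, Trim17 had 1.26 and 2.68 TPM and Trim7 had 1.04 and 2.74 TPM. Relative to the median gene, Trim27 (-0.22) and Trim59 (-0.17) were lower in the second library and the other 7 higher.

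The COS-box members, whose class binds microtubules or muscle structures, were mostly at or near 0 in the gene table. Mid1, a COS-box gene outside the symbol rule, is described with the TRIM genes under other symbols. Of the 8 members Trim36 alone reached 1 TPM, with 1.64 and 2.06 TPM, Trim46 lay just under it, and 6 had no counts there. These were Trim9, Trim67, Trim42 and the muscle genes Trim54, Trim55 and Trim63. In the major histocompatibility complex region Trim26 and Trim39 reached 1 TPM (Trim39 with 8.38 and 9.44 TPM), Trim15 had 0.630 TPM and Trim10, Trim31 and Trim40 had no counts. Over the whole family 14 of the 29 members below 1 TPM had 0 counts in both libraries of the gene table, the others being Trim52, Trim58, Trim60, Trim61 and Trim80. With 3 counts or fewer in each library were Trim29, Trim38, Trim50, Trim71 and Trim72, the last a muscle membrane repair gene. Between these and 1 TPM lay Trim45 (0.420 TPM), Trim69 (0.210), Trim43a (0.200), Trim43b (0.0950), Trim75 (0.0600) and Trim66 (0.0150), besides Trim34b and the 3 genes just under 1 TPM. For 6 of these low members, another deposited table gave counts well above 0 (Trim52, Trim67, Trim63, Trim9, Trim50 and Trim71).

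The genes nearest the 1 TPM level were Trim16, Trim43c and Trim2 above it, with means of 1.06, 1.11 and 1.15 TPM, and Trim62, Trim46 and Trim15 below it, with 0.895, 0.845 and 0.630 TPM. Trim16 had 0.540 and 1.57 TPM and Trim43c had 0.560 and 1.65 TPM, so both were below the level in replicate 1. Trim62 had 1.24 and 0.550 TPM and Trim46 had 1.04 and 0.650 TPM, so both were above it there. At 1 TPM in both libraries stood 37 members.

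The Trim30 cluster on mouse chromosome 7, from Trim6 at 104218793 to Trim30d at 104507849, holds 10 members. In this order they are Trim6, Trim34a, Trim5, Trim12a, Trim34b, Trim12c, Trim30b, Trim30c, Trim30a and Trim30d. They encode proteins related to the retroviral restriction factor TRIM5 of primates, most of them with a C-terminal SPRY domain. Their promoters are shown because 9 of the 10 genes were at 1 TPM or more and because near-identical stretches recur in them. The ISRE-type motif, bound by interferon-activated factors, was searched as GAAANNGAAA on both strands in RefSeq promoter windows (GRCm38.p6, the mm10 assembly), from 250 bases before to 50 after each start. It was found in 3.44% of all 32851 windows and in 10 of the 67 windows of the 53 members with a window. These 10 windows belonged to 9 genes, all of them at 1 TPM or more, as were 28 of the 53 members with a window, and 6 of the 9 lie in the Trim30 cluster. Beyond the cluster, Trim21, Trim26 and Trim2 held it, the window of Trim2 lying 94039 bases inside its gene. Trim30a held it in a further window, 19068 bases inside the gene. The 30 bases around the match are printed 5′ to 3′ on the strand of the gene, with the match in capitals:
Trim30a: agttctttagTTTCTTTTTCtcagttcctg
Trim30d: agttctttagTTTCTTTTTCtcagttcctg
Trim5: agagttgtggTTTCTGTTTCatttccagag
Trim12a: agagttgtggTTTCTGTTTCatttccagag
Trim12c: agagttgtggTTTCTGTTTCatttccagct
Trim34a: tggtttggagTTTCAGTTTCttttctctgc
Trim21: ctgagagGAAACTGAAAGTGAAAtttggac

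These stretches lie at chr7:104465210-104465239 for Trim30a, chr7:104507871-104507900 for Trim30d, chr7:104288136-104288165 for Trim5 and chr7:104315466-104315495 for Trim12a, all on the minus strand. Those of Trim12c and Trim21 lie at chr7:104353359-104353388 and chr7:102565447-102565476, also on the minus strand, and that of Trim34a at chr7:104244457-104244486 on the plus strand. Trim30a and Trim30d share all 30 bases, and so do Trim5 and Trim12a. In Trim21 overlapping matches form a run of 16 bases. The match began 36 bases before the start of Trim30a, 41 before that of Trim30d, 49 before that of Trim5 and 29 before that of Trim12c. In Trim34a and Trim12a it began at position 10 from the RefSeq start.

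The 250 bases before the Trim30a start (chr7:104465194-104465443, minus strand) are given for context, with the match in capitals:
Trim30a promoter: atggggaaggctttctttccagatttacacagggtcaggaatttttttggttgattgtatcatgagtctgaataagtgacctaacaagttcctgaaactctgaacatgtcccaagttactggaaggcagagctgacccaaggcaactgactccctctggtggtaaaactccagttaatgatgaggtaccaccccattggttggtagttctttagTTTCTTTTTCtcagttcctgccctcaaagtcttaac

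No match was found in the windows of Trim6, Trim34b, Trim30b and Trim30c. Trim25, Trim56 and Trim38, interferon-linked members beyond the cluster, also had none in their windows. The window of Trim30b lies 11238 bases inside the annotated gene, so it does not cover the annotated 5′ end. A GAS-type motif, TTCNNNGAA, was found in 8.30% of all windows and in 7 member windows of 6 genes, of which Trim30c alone was at 1 TPM or more. It overlapped the ISRE-type motif in no member window. A match of letters says nothing of binding in these cells.

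The cluster summed to 455 TPM and 595 TPM, or 51.9% ± 3.16 (SD, n = 2) of the TPM of all members. Trim30a and Trim30d together made up 57.0% and 63.2% of the cluster's TPM. Trim12c had 22.9 and 32.0 TPM, Trim5 had 6.43 and 13.1 TPM and Trim6 had 4.84 and 5.43 TPM. Trim30c had 32.4 and 28.1 TPM and Trim30b had 25.7 and 17.4 TPM, so these neighbours of Trim30a were lower in the second library while Trim30a itself was higher. In the gene table Trim30a thus stood 6.10-fold above Trim30b in replicate 1 and 13.7-fold in replicate 2. In the other deposited table Trim30a had 46.7 and 155 TPM and Trim30b 8.83 and 18.4 TPM, so the gap widened less there. Trim30e-ps1, a pseudogene of the cluster, had 2 counts in replicate 1 and 0 in replicate 2.

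**Figure D2:**
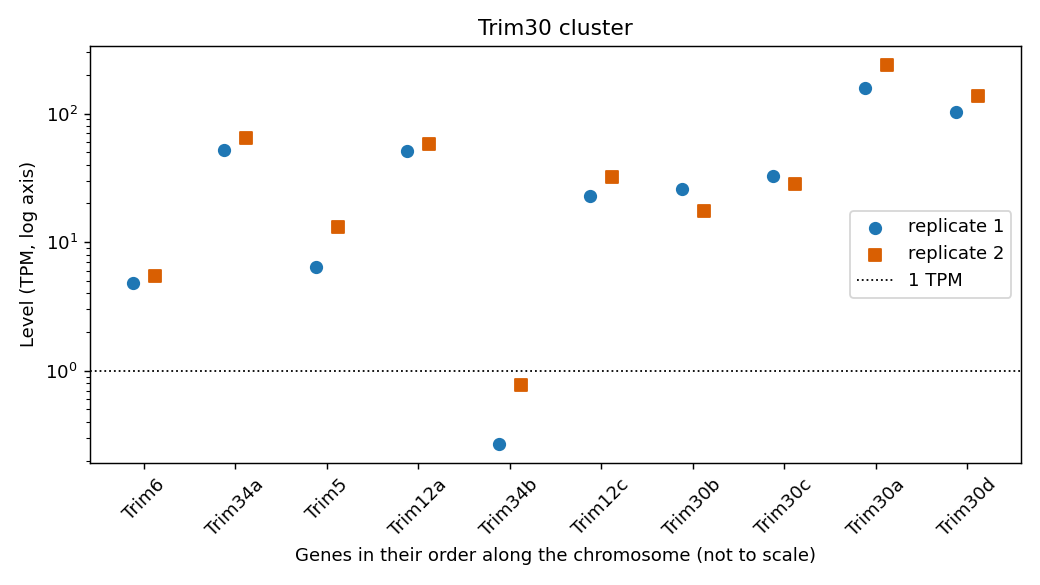
TPM of the 10 Trim30 cluster genes on a log axis, in their order along the chromosome, with circles for replicate 1 and squares for replicate 2. Trim30a and Trim30d are above 100 TPM in both libraries, while Trim34b stays under 1 TPM with 0.270 and 0.780 TPM.

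Near-identical sequence limits how far reads of this cluster can be assigned. Of the stretches of 31 bases in the main protein-coding transcript of Trim34b, 71.0% also occurred in that of Trim34a. For Trim12c and Trim5 the share was 39.0% and 39.2% of each other, for Trim12a 29.0% were also in Trim5 and 24.9% in Trim12c, and Trim30a shared 7.94% with Trim30d. The authors' deposited posterior SD, the uncertainty of the estimate given shared reads, was 11.3 counts of 15613 for Trim30a in replicate 1 and 7.86 of 16868 in replicate 2. For Trim34a it was 25.1 of 3107 counts in replicate 2 and for Trim34b 1.79 of 25.6. It was small beside the counts of Trim12a (1.18 of 2098 in replicate 1), Trim12c (2.53 of 2419) and Trim5 (2.78 of 663), and 0 for Trim25 and Trim30c.

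Transcript types differed widely between members. In the alignment-based transcript table, transcripts not annotated as protein-coding held 16.8% of the TPM of the 39 members in replicate 1 and 15.7% in replicate 2. The same shares over all protein-coding genes at 1 TPM or more were 23.8% and 22.6%. Per gene, the median share was 10.1% over the members and 24.1% over those genes, and 4 members exceeded 50% of the TPM summed over both libraries (10.3%, against 21.6% of the protein-coding genes). These were Trim28, Trim3, Trim26 and Trim16, the last with 0% and 75.3%.

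Trim30d, Trim25, Trim34a and Trim12c had 0% in such transcripts, and Trim30a had 6.97% and 3.18%. Trim25 rested on its 5590-base transcript with 84.5 and 109 TPM, and Trim30a on its 3771-base transcript with 146 and 232 TPM. Trim30d was split between coding transcripts of 3282 bases (65.7 and 87.2 TPM) and 1904 bases (36.9 and 49.6 TPM). Several other high members leaned the other way. Trim28 had 77.2% and 85.4% of its TPM in such transcripts, led by a 565-base retained-intron transcript with 8.92 and 17.9 TPM, while its 3245-base coding transcript had 5.75 and 4.84 TPM. Trim3 had 66.4% and 76.0%, and its 600-base retained-intron transcript had 5.37 and 12.0 TPM. Trim26 had 64.8% and 72.7%, led by a 2249-base processed transcript with 21.2 and 27.2 TPM. In counts, which are not divided by length, these shares were 34.7% and 45.5% for Trim28 and 69.6% and 73.2% for Trim26. The TPM of Trim28 and Trim3 thus leaned on short annotated transcripts, while that of Trim26 did not. The part of unspliced nuclear RNA in these shares was not tested.

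**Figure D3:**
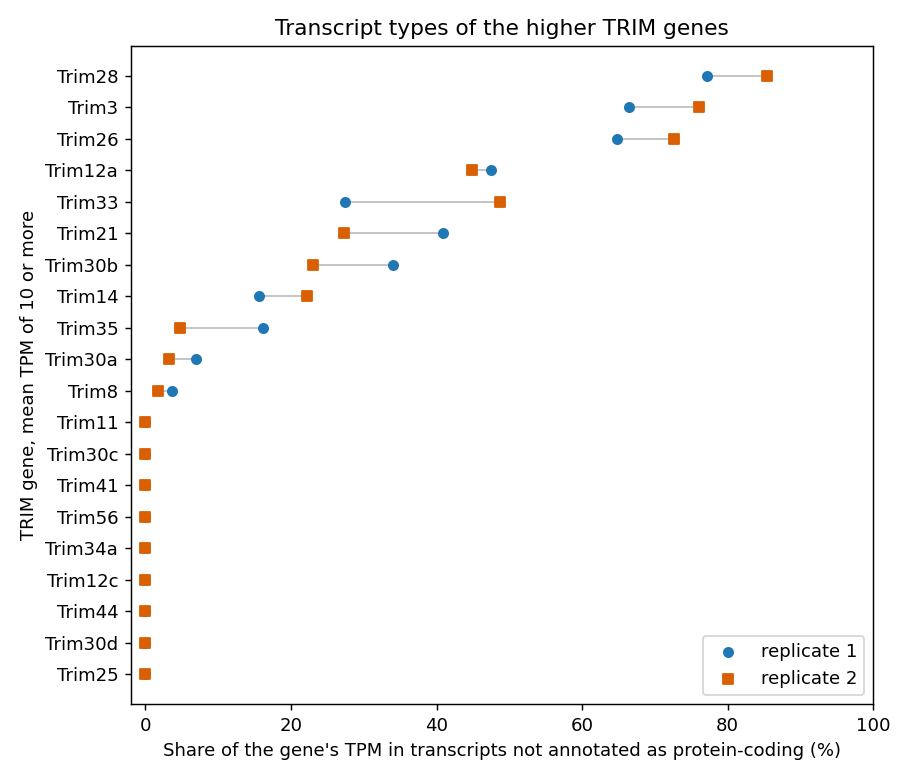
Share of each gene's TPM in transcripts not annotated as protein-coding, for the 20 TRIM genes with a mean of 10 TPM or more. Circles are replicate 1 and squares replicate 2. Trim28, Trim3 and Trim26 lie above 60% in both libraries, and 9 genes lie at 0%.

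To compare the libraries, 1 was added to every TPM and the log2 ratio of the second library to the first was taken, less that of the median gene, 0.29 (1.22-fold) over the 12952 genes with a mean of 1 TPM or more. Over the macrophage markers the median of this difference was -0.39, with Fcgr1 over 2-fold lower in the second library (-1.04), and the part of this in the members' differences was not tested. With 1 library on each side there is no test, and the libraries also differ in RNA input, which cannot be told apart from the replicate. The family as a whole did not lean to either library: 19 of 39 members were lower in replicate 2, or 48.7%, against 53.2% of protein-coding genes at this level. The median difference was 0.0071 (SD over genes 0.40), against -0.037 (SD 0.48) for protein-coding genes. No member was over 2-fold lower, against 3.08% of protein-coding genes, and none was over 2-fold higher, against 1.11%.

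Among members at 1 TPM or more, the 5 lowest differences belonged to Trim8 and 4 interferon-linked members. Trim8 had a difference of -0.97, Trim21 of -0.92, Trim30b of -0.83, Trim14 of -0.54 and Trim30c of -0.49. In the other deposited table Trim21 differed by -0.38, Trim30b by -0.30 and Trim14 by -0.32, in the same direction but smaller. By counts, relative to depth and to the median gene, Trim8 differed by -1.03 (95% interval from the counts alone -1.13 to -0.92) and Trim30b by -0.96 (-1.06 to -0.86). At the other end, Trim5 had 0.63, Trim7 0.59, Trim23 0.52, Trim33 0.49 and Trim43c 0.48. In the other deposited table Trim7 stood at -0.45 and Trim43c at -0.23, both with a mean under 1 TPM, and Trim23 at 0.10. The median gene's log2 ratio was 1.28 there, against 0.29, and the added 1 TPM shrinks the ratios of low genes. A gene at 0 in both libraries stood at -1.28 there, so the sign of such low values cannot be read as a direction. In TPM there, Trim7 had 0.371 and 1.44, Trim43c 0.243 and 1.57 and Trim23 0.869 and 3.87. With counts scaled by median of ratios, Trim33 differed by 0.20. By counts Trim5 differed by 0.68 (0.53 to 0.83) and Trim23 by 0.68 (0.47 to 0.89), whereas Trim7, with 79 and 87 counts, differed by 0.35 (-0.11 to 0.81). In all, the counting interval lay below 0 for 11 of the 39 members and above 0 for 11, against 36.3% and 30.7% of protein-coding genes at this level. These intervals hold no spread between cultures.

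Interferon-linked members did not move as a block. Of the 14 at 1 TPM or more 8 were lower in replicate 2 and 6 higher, with a median of -0.13 (SD 0.43). Without subtracting the median gene 4 of 14 were lower, with a median of 0.16, against 28.6% of protein-coding genes and a median of 0.25. In the other deposited table the list median changed sign to 0.074, with 6 of 14 lower. Protein-coding genes there had a median of -0.029, with 52.8% lower. By counts, 6 of 14 lay below 0 beyond counting error and 4 above, beside the 36.3% and 30.7% of protein-coding genes. Trim30a had a difference of 0.31 and Trim30d of 0.12, set against -0.83 for Trim30b and -0.49 for Trim30c from the same cluster. Trim25 differed by 0.05, and by counts by 0.03 (-0.01 to 0.06). All 3 PHD-bromodomain members at this level were higher by TPM, with 0.10 for Trim28, 0.43 for Trim24 and 0.49 for Trim33. By counts Trim28 was lower, at -0.33 (-0.49 to -0.17), with 800 and 550 counts, while Trim24 and Trim33 were again higher.

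**Figure D4:**
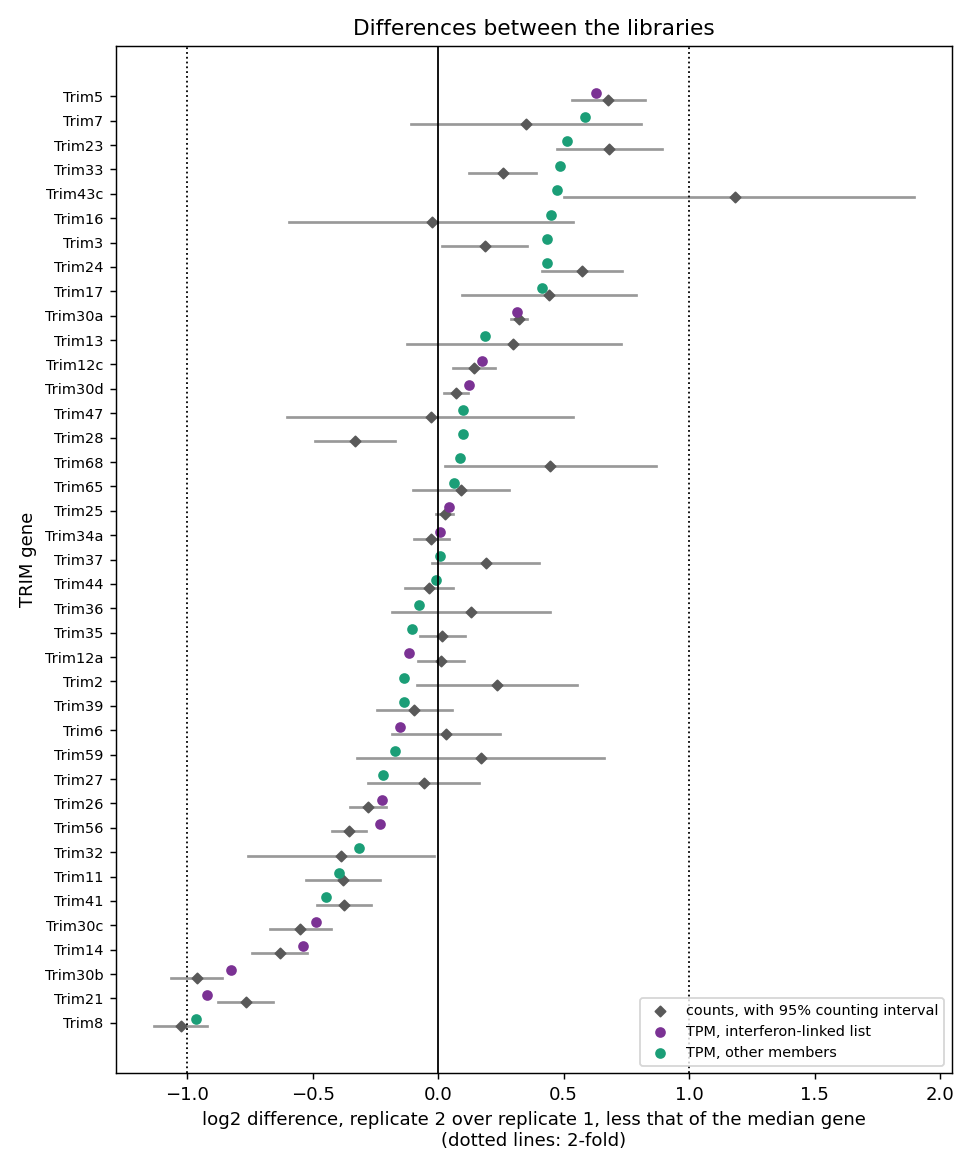
Difference between the libraries for the 39 TRIM genes at 1 TPM or more, as the log2 ratio of the second to the first, less that of the median gene. Circles are from TPM (purple for the interferon-linked list), diamonds from counts with 95% intervals of counting error, and dotted lines mark 2-fold. Circles run from -0.97 for Trim8 to 0.63 for Trim5.

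TRIM genes under other symbols and partners of TRIM proteins were described for context. Pml, the scaffold gene of PML bodies, had 62.3 and 46.1 TPM, Mid1, a microtubule-binding ligase gene, had 34.1 and 22.1 TPM, and Mefv, the gene of pyrin, had 12.3 TPM on average. These 3 were lower in replicate 2, by -0.72, -0.90 and -0.88, while Mid2 was at 0.0300 TPM. All 18 partner genes were at 1 TPM or more, 7 lower and 11 higher in replicate 2, with a median of 0.10. Ddx58, which encodes RIG-I, had 154 and 125 TPM. Tab2 and Tab3, whose products are targets of the Trim30a protein, had 44.2 and 3.44 TPM on average, and Setdb1, the methyltransferase that works with TRIM28, had 13.4 and 18.5 TPM. Daxx, a PML body gene, was the 1 partner over 2-fold lower, with 142 and 73.0 TPM.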

How the data were processed

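Each of the 2 libraries had deposited tables of genes and of transcripts derived from a transcriptome alignment, and another transcript table derived from the reads, as text files beside the deposited tables record. Assembly mm10 and annotation M21 are named in text files deposited with the samples. The aligner, quantifier, versions and use of strand were not given in the sources used here. Reads of overlapping antisense genes may thus be mixed, and 27 members have such an overlap. The share over all protein-coding genes was not computed. The deposited expected counts are estimated reads, not whole and not normalised, per the file headers. The deposited TPM values divide them by effective length and scale them to a common sum, per the file headers. The deposited isoform percent is the share of a transcript in its gene's TPM, per the file headers.

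Members, lists, thresholds and tests were chosen with earlier results of these data known. Symbols and types came from the transcript names, positions from GENCODE M21, promoters from RefSeq (GRCm38.p6), in which 53 members were matched. Entries with numeric identifiers and spike-ins were left out. Named are members with a mean of 10 TPM or more, the Trim30 cluster, the 5 largest differences each way among members at 1 TPM or more with at least 10 counts in each library, the 3 genes nearest 1 TPM on each side, and leading transcripts. Further members, partners and markers were named after their values were seen, to account for each class. Differences used a pseudocount of 1 TPM. Shares of counts carry 95% Wilson intervals and count ratios exact (Clopper-Pearson) intervals. The libraries differed far beyond sampling noise (chi-square of 91.3 per degree of freedom over genes with at least 10 counts in each). TMM factors came from edgeR 4.0.16 on rounded expected counts in R 4.3.3. Other steps ran in Python 3.11.15 with scipy 1.17.1, pandas 2.3.3 and numpy 2.4.6, and plots were drawn with matplotlib 3.10.9. The difference script was tested on simulated data. Alternatives were other thresholds, pseudocounts, filters, scalings and centrings, the other transcript table and each replicate alone.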

Additional observations from a re-analysis of the deposited data

Results flagged for a closer look

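Of the members with at most 3 counts in each library of the gene table, 6 had 10 or more estimated counts in each library of the transcript table made from the reads, above the limit that a count of 0 allows. The same share over all protein-coding genes was not computed, so this may not be particular to TRIM genes. That table also held more counts in all, and scaled to its depth Trim52 had 4.41 and 4.91 CPM. Trim52 had 0 and 0 counts in the gene table but 133 and 154 in the other (mean 143). Trim67 had 77.9 and 175 (mean 126) and Trim63, a muscle ligase gene, had 75.9 and 99.3 (mean 87.6), both with 0 in the gene table. Trim9 had a mean of 35.0, with 55.0 in replicate 2, Trim50 had 10.6 and 47.6 (mean 29.1) and Trim71 had 24.1 and 33.1 (mean 28.6). Both tables were at 0 for 9 of the 14 members without counts in the gene table. The cause was not tested, and these members are reported as low only for the gene table.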

How the results depend on the processing

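The number of members at 1 TPM or more stayed within 1.5 times the reported 39, from 30 at 2 TPM to 44 by CPM or by TPM over protein-coding genes, and was 39 in each library alone. The median difference lay near 0 and changed sign to -0.029 with a pseudocount of 0.1, -0.012 with 5, -0.13 with no filter, -0.0059 in the other transcript table, -0.010 with TMM-scaled counts and -0.023 with median-of-ratios counts. Without centring it was 0.30, and 8 of 39 members rather than 19 were lower (28.6% of protein-coding genes). With no filter 31 of 53 were lower (63.0%). Genes near 0 TPM fall below 0 there through the added 1 TPM and the centring, as Trim43b stood at -0.22 with 0.0700 and 0.120 TPM. Over 2-fold lay 3 members with a pseudocount of 0.1, and 1, Trim8, with each count scaling. The shares of protein-coding genes over 2-fold were not computed at these settings, so the counts cannot be read against them. The interferon-linked median became 0.074 in the other table and 0.16 without centring, against -0.029 and 0.25 for protein-coding genes. The cluster sum was 268 TPM in the other table, 1814 CPM and 2240 TPM over protein-coding genes, and 455 to 595 TPM in single libraries. The 268 TPM is a mean of unlike libraries, as Trim30a had 46.7 and 155 TPM in the other table. The log2 ratio of the median gene was 1.28 there, against 0.29 in the gene table, which bears on every difference taken from it. The cluster's share of member TPM lay between 49.7% and 54.2% throughout, and its share of member counts was 49.1% on average. The share of transcripts not annotated as protein-coding was 21.5% in the other table and 15.7% to 16.8% in single libraries. The causes were not tested. By direction, 25 of the 39 members matched between the gene table and the other table and 29 between TPM and counts. The same shares over all protein-coding genes were not computed. Low members can mismatch through the added 1 TPM and the centring, as Trim17 stood at -0.36 in the other table with 0.402 and 1.66 TPM. Of the 10 members with the largest differences, 8 kept their direction under all alternatives. In the other table Trim21 moved from -0.92 to -0.38, Trim30b from -0.83 to -0.30 and Trim14 from -0.54 to -0.32. Trim23 moved there from 0.52 to 0.10, with 0.869 and 3.87 TPM. The added 1 TPM exceeds its value in replicate 1, so the 0.10 does not show a smaller difference. By median-of-ratios counts Trim33 moved from 0.49 to 0.20. Trim7 and Trim43c fell under 1 TPM in the other table. Their unfiltered values there were -0.45 and -0.23, which the added 1 TPM and the subtracted 1.28 of the median gene pull down. No direction was read from them. Both kept their direction under the rest, where the pseudocount moved Trim7 between 0.18 and 0.98 and Trim43c between 0.085 and 1.07. Members with under 100 counts, such as Trim7, Trim16, Trim43c, Trim47 and Trim59, were limited by depth. No paired analysis was possible because there was 1 group.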
